A study of Mus musculus with 5 samples.

Results

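The collagens are a gene family of the extracellular matrix, and they were taken here as every non-control probe on the arrays whose gene name in the scanner files has the form of a collagen chain, such as Col1a1 or Col18a1. This gave 78 probes, on 96 spots, for 39 of the 28090 gene names on the array: 11 fibrillar chains, 6 type IV chains and 22 chains of other types. Where a gene had several probes, as 28 of the 39 did, the probe with the highest mean signal stood for it. RefSeq accessions in the files matched 63 of the 78 probes to a gene, and all 63 carried the same symbol. A further 4 probes that RefSeq assigns to Col6a4, Col6a6 and Col26a1 bear older names in the files and are not among the 39. Liver RNA came from male mice of the inbred strain C57BL/6J, all 25 weeks old. The control group was untreated, HFHFr-F mice ate a high-fat, high-fructose diet for 20 weeks, and the other 3 groups ate it for 16 weeks before a change of diet lasting 4 weeks. In that last period HFHFr-N mice were given normal diet. All-trans retinoic acid was added to normal diet for HFHFr-NA mice and to the high-fat, high-fructose diet for HFHFr-FA mice. It is the form of vitamin A that binds nuclear receptors. Per the labels, insulin resistance was severe in HFHFr-F, present in HFHFr-N and gone in HFHFr-NA and HFHFr-FA, the last with slight steatosis. RNA of the 5 mice of a group was pooled on 1 array, so no group has a replicate, no test between groups was made, and every comparison is between single pools.

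Collagens are built from 3 polypeptide chains wound into a triple helix. Fibrillar collagens assemble into the banded fibrils that give tissue its tensile strength, type IV collagen forms the sheet-like network of basement membranes, and the remaining types decorate fibrils, anchor cells or form finer filaments. In the liver, fibrillar collagens are made mainly by hepatic stellate cells and portal fibroblasts and accumulate as scar in fibrosis, whereas hepatocytes are the main source of type XVIII collagen. In RNA of whole liver, fewer cells of a type and less RNA per cell cannot be told apart.

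Each array carried 43379 non-control spots, of which 46.7% to 49.4% were well above background by the scanner software. Signals are given below as scaled signal, the processed signal divided by the 75th percentile of that array, which lay between 172.5 and 222.9. No spot was saturated. The 10-spot probes had a median standard deviation of 0.0704 to 0.0863 on the log2 scale within an array, and the log2 ratio of 2 single spots a corresponding spread of 0.103 to 0.116. That spread, and the software's error of up to 21.5% of the signal for collagens well above background, leave out differences between mice and between arrays. HFHFr-FA was alone on 1 slide and scan and the other 4 groups shared another, so for HFHFr-FA the slide cannot be told apart from the treatment.

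Of the 39 collagens, 25 were well above background on at least 1 array, and 17 on all 5. The number well above background was 19 in control, 23 in HFHFr-F, 20 in HFHFr-FA, 21 in HFHFr-N and 22 in HFHFr-NA. For the fibrillar chains it was 8, 10, 8, 8 and 9 in the same order. The 14 collagens not well above background on any array were Col4a3, Col4a5, Col6a3, Col8a2, Col9a1, Col9a3, Col10a1, Col11a2, Col12a1, Col17a1, Col19a1, Col22a1, Col23a1 and Col28a1. Their signals give no order between groups, and at this sensitivity they could not be measured. Comparisons use each collagen that at least 1 of their 2 arrays measured. A ratio with only 1 measured side is called a bound. Its dim side is set to the collagen's own signal or to that array's detection floor, whichever is higher, the floor being the dimmest signal called well above background, 0.0735 to 0.0863 in scaled signal. Where the own dim signal was the higher, the ratio is an estimate and no limit, and the true ratio can be smaller.

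**Figure D1:**
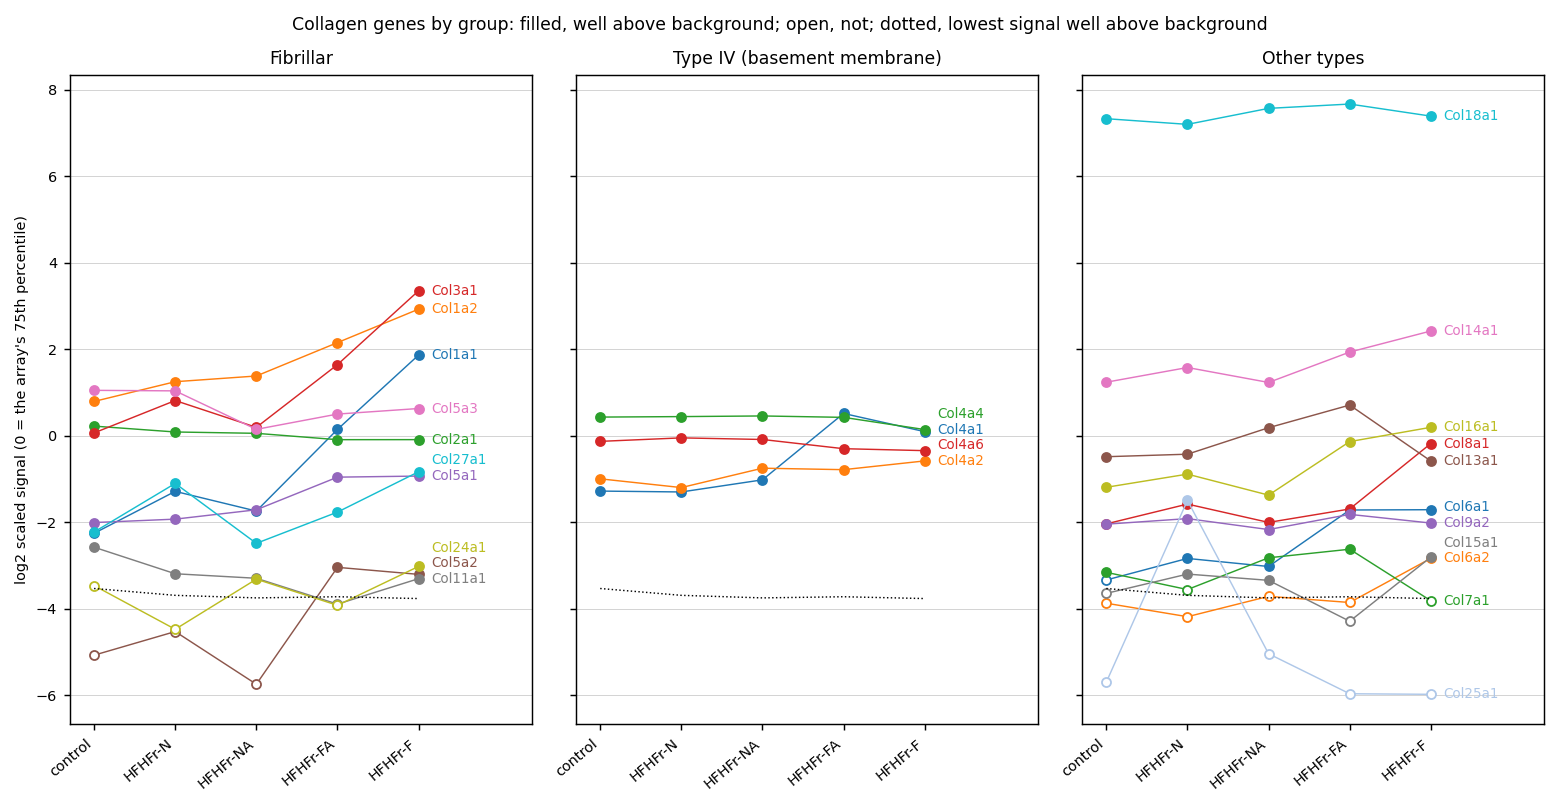
Scaled signal on the log2 scale of the 25 collagens well above background on at least 1 array, in 5 groups of 1 array each, with fibrillar, type IV and other types apart. Filled points are well above background, open points are not, the dotted line is the lowest signal well above background, and lines only join the points of 1 gene. Col1a1, Col1a2 and Col3a1 reach their highest values in HFHFr-F, whereas Col4a4, Col4a6, Col18a1 and, on its brighter probe, Col2a1 lie nearly level.

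On the diet that was never withdrawn, Col1a1, Col3a1, Col1a2 and 7 other collagens of several types were at least 2-fold higher than in untreated liver. In HFHFr-F against control, 10 of the 24 collagens measured, 41.7%, were at least 2-fold higher, beside 5.45% of all 14435 gene names measured. None of the 24 was at least 2-fold lower, beside 3.24% of all gene names. The median log2 ratio was 0.57 over the collagens and -0.08 over all gene names. By type, 5 of 10 fibrillar chains, 1 of 4 type IV chains and 4 of 10 others were at least 2-fold higher, with medians of 0.76, 0.10 and 0.71. Of the 24, 18 were measured on both arrays and 6 give bounds. With background corrected by the normexp model in place of the software's processed signal, 4 collagens were at least 2-fold higher, beside 2.24% of all gene names. With all probes of a gene averaged 6 were, beside 4.4%.

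The chains of type I collagen, the main protein of scar, showed the widest differences together with Col3a1, the chain of type III collagen. Col1a1 encodes the alpha 1 chain of type I collagen, and its probe lies at chr11:94813075-94813134 (mm9). This probe was spotted 10 times on each array, which gives a spread over spots. Its scaled signal was 0.212 ± 0.0374 in control, 3.64 ± 0.162 in HFHFr-F, 1.11 ± 0.0457 in HFHFr-FA, 0.411 ± 0.0346 in HFHFr-N and 0.299 ± 0.0166 in HFHFr-NA (SD over the 10 spots of 1 array). No spot of HFHFr-F, lowest at 3.40, overlapped a spot of HFHFr-FA, highest at 1.19, and both lay above every spot of the remaining groups, where the highest was 0.460 in HFHFr-N. The control and HFHFr-NA spots lay close, the highest control spot being 0.271 and the lowest HFHFr-NA spot 0.280. How many other 10-spot probes separate between these arrays was not counted. Spots of 1 array leave out differences between mice and between arrays, so their separation is no result about the groups. Col1a1 was 17.4-fold higher in HFHFr-F than in control, a log2 ratio of 4.12, and stayed at least 2-fold higher under each alternative that was run, with log2 ratios of 2.46 to 4.23. A second Col1a1 probe was well above background in HFHFr-F alone, at 0.246, and the gene's remaining probe on no array.

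**Figure D2:**
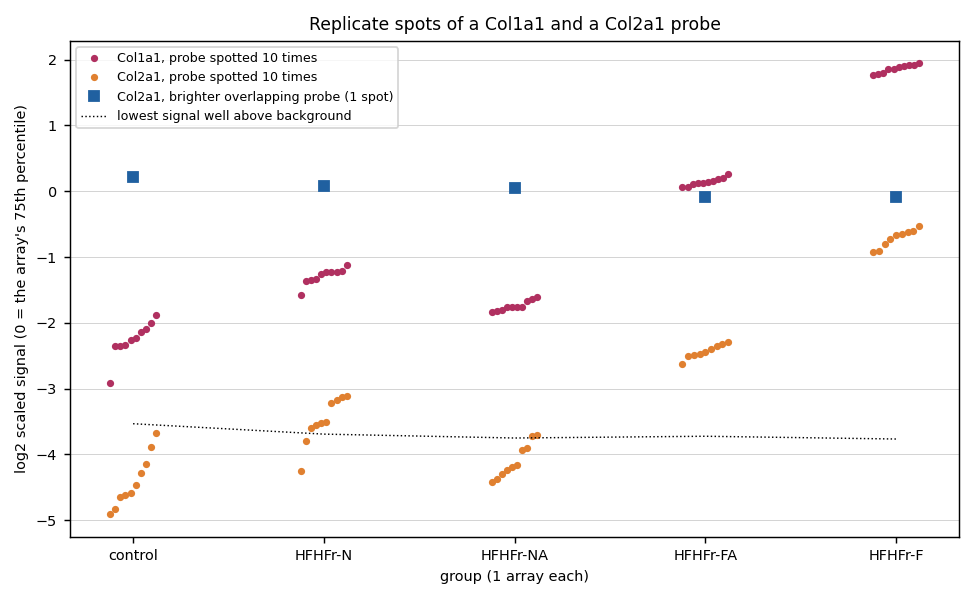
Scaled signal on the log2 scale of each spot of a Col1a1 probe and a Col2a1 probe that were spotted 10 times per array, and of the brighter single-spot Col2a1 probe, in 5 groups of 1 array each. Points are spots and the dotted line is the lowest signal well above background. Both probes spotted 10 times are highest in HFHFr-F and second in HFHFr-FA, while the brighter Col2a1 probe is level at 0.937 to 1.17 in scaled signal.

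Col1a2, the alpha 2 chain that joins Col1a1 in type I collagen (probe at chr6:4490619-4490678, mm9), had a scaled signal of 1.73 in control, 7.59 in HFHFr-F, 4.44 in HFHFr-FA, 2.37 in HFHFr-N and 2.60 in HFHFr-NA. It was 4.39-fold higher in HFHFr-F than in control. Col3a1, whose product forms thin reticular fibrils alongside type I collagen (probe at chr1:45405589-45405648, mm9), read 1.04 in control, 10.2 in HFHFr-F, 3.12 in HFHFr-FA, 1.76 in HFHFr-N and 1.14 in HFHFr-NA. It was 9.76-fold higher in HFHFr-F than in control. Both genes were highest in HFHFr-F and second in HFHFr-FA. Averaging these genes' probes, of which the others were at background on every array, brought the log2 ratio of Col1a2 from 2.13 to 0.92 and that of Col3a1 from 3.29 to 0.96.

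The promoter windows of these chains differ in make-up, and are shown as RefSeq gives them on GRCm38.p6, from 250 bases before to 50 after the start site, 5′ to 3′ on the gene's strand, because Col1a2 and Col3a1 were high on the same array. Capitals mark exact matches, on either strand, to 5 motifs. The CAAT box was searched as CCAAT, the GC box as GGGCGG, the TATA box as TATAAA, the nuclear receptor motif as AGGTCA and the extended SMAD box as CAGACA.
Col1a2 promoter window: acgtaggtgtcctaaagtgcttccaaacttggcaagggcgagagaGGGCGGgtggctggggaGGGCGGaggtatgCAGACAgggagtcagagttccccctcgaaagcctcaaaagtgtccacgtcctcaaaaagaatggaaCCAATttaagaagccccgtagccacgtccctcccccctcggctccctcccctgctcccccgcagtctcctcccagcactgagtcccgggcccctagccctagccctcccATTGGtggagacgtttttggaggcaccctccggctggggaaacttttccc
Col3a1 promoter window: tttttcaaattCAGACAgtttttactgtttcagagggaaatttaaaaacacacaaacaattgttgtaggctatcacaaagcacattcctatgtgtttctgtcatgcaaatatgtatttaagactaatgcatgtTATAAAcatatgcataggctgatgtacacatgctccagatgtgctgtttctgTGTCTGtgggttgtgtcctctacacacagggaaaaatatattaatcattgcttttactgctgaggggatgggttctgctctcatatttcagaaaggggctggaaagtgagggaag
The Col1a2 window (chr6:4505368-4505667, plus strand) is 61% G or C and holds 2 CAAT boxes, 2 GC boxes and 1 SMAD box. The Col3a1 window (chr1:45311288-45311587, plus strand) is 37.7% G or C and holds 1 TATA box and 2 SMAD boxes, with no CAAT or GC box. Of the 39 collagens 31 had a window in the table, 21 of them among the 25 measured. Of those 21, 9 held a CAAT box, beside 37.4% of all 32851 windows, 15 a GC box, beside 35.7%, 2 a TATA box, beside 13.6%, 4 the nuclear receptor motif, beside 16.3%, and 7 a SMAD box, beside 21.0%. The windows with a SMAD box were those of Col1a2, Col3a1, Col5a1, Col7a1, Col8a1, Col9a2 and Col18a1, a mix of chains that were higher in HFHFr-F and chains that were not. A match describes letters in this window only, different motifs were counted separately, and binding was not measured.

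Type V collagen sits inside type I fibrils and governs their diameter. Col5a1 read 0.248 in control, 0.523 in HFHFr-F, 0.514 in HFHFr-FA, 0.262 in HFHFr-N and 0.305 in HFHFr-NA, and was 2.11-fold higher in HFHFr-F than in control. Its second, dimmer probe gave a log2 ratio of -0.04 between the same arrays. Col5a2 was well above background in HFHFr-F, at 0.108, and HFHFr-FA, at 0.121, and on no other array, which gives a log2 ratio of at least 0.33 against control. Col5a3 took another course: 2.07 in control, 1.54 in HFHFr-F, 1.41 in HFHFr-FA, 2.05 in HFHFr-N and 1.11 in HFHFr-NA, a log2 ratio of -0.42 in HFHFr-F against control. The type V chains thus did not move as a block.

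The remaining fibrillar chains are those of cartilage fibrils and of types XXIV and XXVII. Col27a1, which is best known from cartilage, read 0.213 in control, 0.560 in HFHFr-F, 0.294 in HFHFr-FA, 0.465 in HFHFr-N and 0.178 in HFHFr-NA. It was 2.63-fold higher in HFHFr-F than in control and high in HFHFr-N too, and its second probe was likewise well above background in those 2 groups alone, at 0.134 and 0.117. Col11a1, a chain of type XI collagen that is found in cartilage fibrils, read 0.167 in control, 0.101 in HFHFr-F, 0.109 in HFHFr-N, 0.102 in HFHFr-NA and 0.0672 in HFHFr-FA, where it was not well above background. Col24a1 was well above background only in HFHFr-NA, at 0.100, and HFHFr-F, at 0.123. Its log2 ratio of 0.44 in HFHFr-F against control rests on a dim control signal of 0.0905, above the floor, and is no lower limit.

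Col2a1 encodes the chain of type II collagen, the main fibril protein of cartilage, and its probes disagreed. The pair below, both on mm9 chromosome 15, at 97806505 to 97806564 and at 97806485 to 97806544, share 40 of their 60 bases, shown in capitals, and together cover 80 bases with a reading frame free of stop codons.
Col2a1 brighter probe: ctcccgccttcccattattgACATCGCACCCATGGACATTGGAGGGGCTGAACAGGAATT
Col2a1 probe spotted 10 times: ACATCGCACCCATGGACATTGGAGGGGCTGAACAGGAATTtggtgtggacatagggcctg
The brighter probe read 1.17 in control, 0.938 in HFHFr-F, 0.937 in HFHFr-FA, 1.06 in HFHFr-N and 1.04 in HFHFr-NA, a log2 ratio of -0.31 in HFHFr-F against control. The probe spotted 10 times read 0.0489 ± 0.0146 in control, 0.611 ± 0.0576 in HFHFr-F, 0.186 ± 0.0133 in HFHFr-FA, 0.0915 ± 0.0205 in HFHFr-N and 0.0593 ± 0.0110 in HFHFr-NA (SD over 10 spots, 9 in HFHFr-F and HFHFr-FA). On it HFHFr-F was above control by a log2 ratio of at least 2.82, and HFHFr-FA was lower than HFHFr-F by a log2 ratio of -1.72. The collagen counts and medians take Col2a1 by the brighter probe, on which it was under 2-fold in every comparison. By the probe spotted 10 times it would count as at least 2-fold higher in HFHFr-F against control. Which reading holds for Col2a1 was not settled, and the cause of the disagreement was not tested.

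Type IV chains pair in fixed combinations, and Col4a1 and Col4a2 form the network found in nearly all basement membranes. Col4a1 read 0.411 in control, 1.07 in HFHFr-F, 1.43 in HFHFr-FA, 0.406 in HFHFr-N and 0.493 in HFHFr-NA on a probe whose alignment spans chr8:11199846-11201680 (mm9). It was 2.59-fold higher in HFHFr-F than in control, and higher still in HFHFr-FA, unlike the type I and III chains. Its second probe, almost as bright, gave a smaller log2 ratio of 0.81 against control in both HFHFr-F and HFHFr-FA. Col4a2 read 0.501 in control, 0.667 in HFHFr-F, 0.580 in HFHFr-FA, 0.435 in HFHFr-N and 0.594 in HFHFr-NA, and its log2 ratio in HFHFr-F against control was 0.41, or 0.36 on its second probe.

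The genes for these partner chains lie head to head, their RefSeq start sites 21 bases apart on opposite strands of chromosome 8, so that the windows overlap by 78 bases. They are shown because the pair shares this stretch and yet differed on the chosen probes. In HFHFr-F against control the log2 ratio was 1.37 for Col4a1 and 0.41 for Col4a2. The second Col4a1 probe, at 0.81, lay between these, and the difference was not tested.
Col4a1 promoter window: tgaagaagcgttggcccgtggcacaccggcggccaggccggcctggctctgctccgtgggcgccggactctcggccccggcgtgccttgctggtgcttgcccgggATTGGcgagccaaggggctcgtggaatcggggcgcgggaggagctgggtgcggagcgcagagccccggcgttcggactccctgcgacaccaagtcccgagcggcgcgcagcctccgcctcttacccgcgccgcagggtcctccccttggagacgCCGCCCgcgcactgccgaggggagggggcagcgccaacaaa
Col4a2 promoter window: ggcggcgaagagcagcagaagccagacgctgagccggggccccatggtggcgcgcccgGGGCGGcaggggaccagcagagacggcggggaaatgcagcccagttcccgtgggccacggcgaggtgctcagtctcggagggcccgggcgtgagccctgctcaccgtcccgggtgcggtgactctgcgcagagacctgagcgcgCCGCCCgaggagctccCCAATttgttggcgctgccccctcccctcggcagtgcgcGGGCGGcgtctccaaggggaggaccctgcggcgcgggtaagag
The Col4a1 window (chr8:11312777-11313076, minus strand, GRCm38.p6) is 74.0% G or C with 1 CAAT box and 1 GC box, and the Col4a2 window (chr8:11312555-11312854, plus strand) is 73.7% G or C with 1 CAAT box and 3 GC boxes. Neither holds any of the other motifs. Col4a4, a chain of the kidney-type network, read 1.35 in control, 1.102 in HFHFr-F, 1.34 in HFHFr-FA, 1.36 in HFHFr-N and 1.37 in HFHFr-NA. The mm9 position given for this probe spans only 29 bases, and the gene's other probe was well above background on no array. Col4a6 read 0.912, 0.786, 0.811, 0.965 and 0.940 in the same order, and both chains were slightly lower in HFHFr-F than in control, by log2 ratios of -0.29 and -0.21. A dim Col4a6 probe was well above background in HFHFr-F alone, at 0.114, and the gene's remaining probe on no array.

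Among the other types, Col8a1, a short-chain collagen of vessel walls and subendothelial matrix, read 0.243 in control, 0.881 in HFHFr-F, 0.309 in HFHFr-FA, 0.334 in HFHFr-N and 0.249 in HFHFr-NA. It was 3.63-fold higher in HFHFr-F than in control, and HFHFr-F stood alone above the rest. Col6a1 and Col6a2 encode chains of the beaded filaments that surround cells. Col6a1 read 0.305 in HFHFr-F, 0.304 in HFHFr-FA, 0.140 in HFHFr-N and 0.123 in HFHFr-NA. In control it was not well above background, at 0.0989. The 3.08-fold higher value in HFHFr-F rests on that dim signal, above the floor, and is no lower limit. Col6a2 was well above background in HFHFr-F alone, at 0.140, a log2 ratio of at least 0.70 against control.

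Col14a1 and Col16a1 encode collagens that attach to the surface of fibrils. Col14a1 read 2.35 in control, 5.35 in HFHFr-F, 3.82 in HFHFr-FA, 2.98 in HFHFr-N and 2.35 in HFHFr-NA, which made it 2.27-fold higher in HFHFr-F than in control. Col16a1 read 0.437, 1.14, 0.909, 0.540 and 0.386 in the same order and was 2.62-fold higher. For both, HFHFr-F was highest and HFHFr-FA second. Col9a2, a fibril-associated chain of cartilage, stayed between 0.222 in HFHFr-NA and 0.283 in HFHFr-FA, with a log2 ratio of 0.03 in HFHFr-F against control.

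Types XV and XVIII are basement membrane collagens that carry glycosaminoglycan chains, and type XVIII holds the endostatin fragment. Col18a1 read 160.7 in control, 167.5 in HFHFr-F, 203.3 in HFHFr-FA, 146.8 in HFHFr-N and 189.7 in HFHFr-NA. Its log2 ratio in HFHFr-F against control was 0.06, and -0.01 on its second probe, so the hepatocyte-rich collagen was level where the scar collagens were not. Col15a1 was well above background in HFHFr-F, at 0.143, HFHFr-N, at 0.109, and HFHFr-NA, at 0.0984, a log2 ratio of at least 0.73 in HFHFr-F against control. Col7a1, which forms the anchoring fibrils of skin, read 0.112 in control, 0.141 in HFHFr-NA and 0.162 in HFHFr-FA and was not well above background in HFHFr-N or HFHFr-F.

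The membrane-spanning collagens showed patterns of their own. Col13a1, found at cell-to-matrix junctions, read 0.713 in control, 0.666 in HFHFr-F, 1.63 in HFHFr-FA, 0.743 in HFHFr-N and 1.14 in HFHFr-NA. On this probe both groups given retinoic acid lay above the other 3. The gene's second probe was well above background on no array. Averaging it in moved the log2 ratio of HFHFr-NA against HFHFr-N from 0.61 to -0.40. Col25a1, best known from neurons, was well above background on the chosen probe in HFHFr-N alone, at 0.354. That is 1 spot on 1 array, the gene's other probes were not well above background there, and 1 of the 8 neighbouring spots was also at least 2-fold above its own level on the other arrays. The 3 calls for Col25a1 below rest on this spot.

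Withdrawal of the diet was compared in HFHFr-N against HFHFr-F. Of the 24 collagens measured 7 were at least 2-fold lower in HFHFr-N, beside 3.7% of all 14605 gene names measured. They were Col1a1 (8.89-fold lower), Col3a1 (5.81-fold), Col1a2 (3.20-fold), Col8a1 (2.64-fold), Col4a1 (2.63-fold), Col6a1 (2.18-fold) and Col16a1 (2.12-fold). Col25a1 was at least 4.83-fold higher, the only one of 24 in that direction, beside 2.16% of all gene names. The median log2 ratio was -0.55 over the collagens and 0.10 over all gene names. Col5a1 lay just outside the 2-fold limit at a log2 ratio of -0.996, and Col27a1 differed little, at -0.27. Averaging all probes of a gene left 4 collagens at least 2-fold lower, beside 3.06% of all gene names, and normexp 3, beside 1.31%. HFHFr-F stands in this comparison and in those with control and with HFHFr-FA, so they are not independent.

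HFHFr-N was also set against untreated liver. Of 22 collagens measured in HFHFr-N against control, 2 were at least 2-fold higher, beside 1.17% of all 14313 gene names, and 0 were at least 2-fold lower, beside 0.824%. These were Col27a1 (2.18-fold) and Col25a1 (at least 4.11-fold), and without the Col25a1 spot the count was 1. Col1a1 had a log2 ratio of 0.97, Col3a1 of 0.75 and Col1a2 of 0.46, each larger than the spot spread of 0.116 but under 2-fold. With all probes averaged these were 0.23, 0.14 and 0.32, and under normexp Col1a1 was at 0.39. Col4a1 had a log2 ratio of -0.02 and Col5a1 of 0.08. The median log2 ratio was 0.10 over the collagens and 0.02 over all gene names. Under normexp 0 collagens were at least 2-fold higher, beside 0.321% of all gene names.

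**Figure D3:**
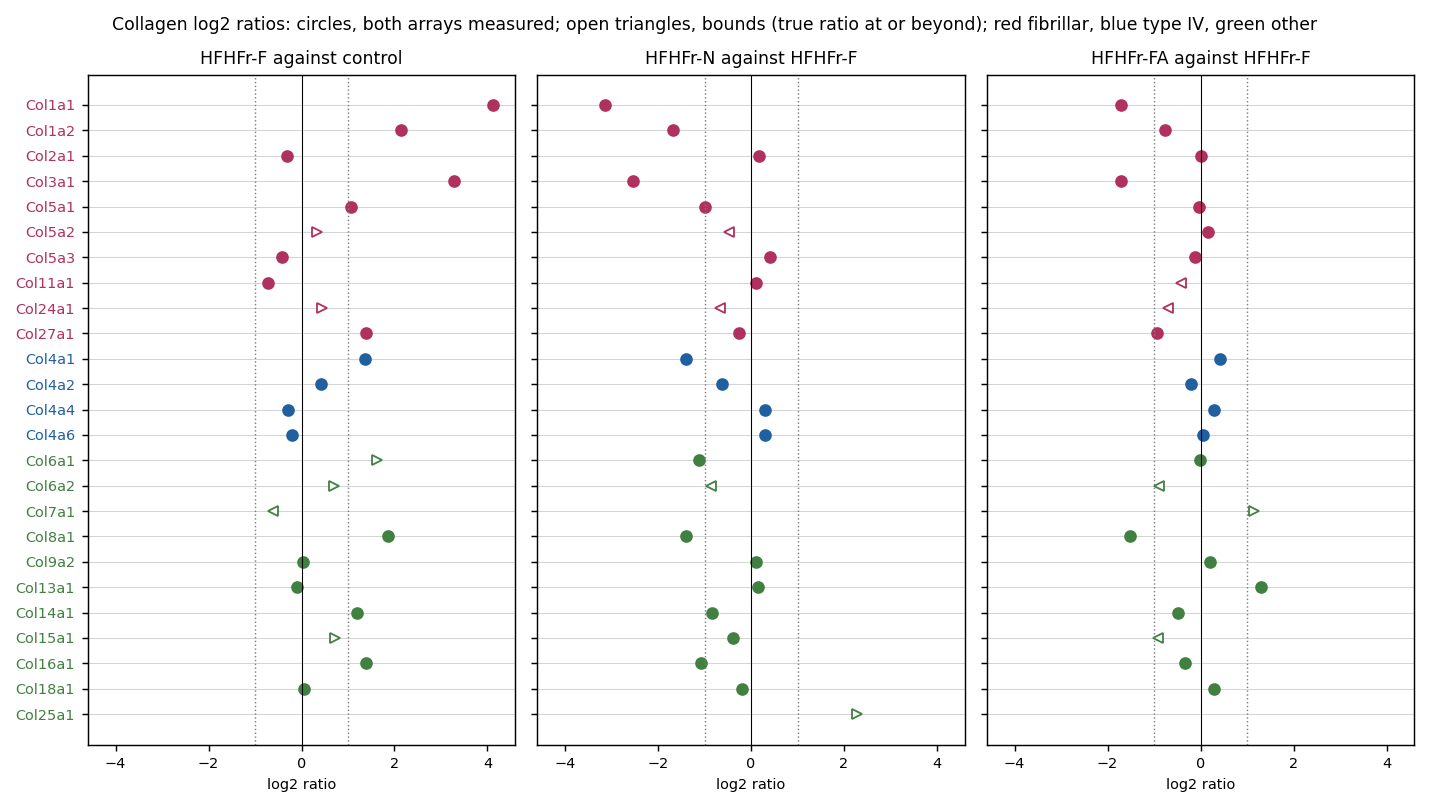
Log2 ratios of the 25 collagens in HFHFr-F against control, HFHFr-N against HFHFr-F and HFHFr-FA against HFHFr-F, which share the HFHFr-F array. Filled circles were measured on both arrays, open triangles are bounds that point away from 0, dotted lines mark 2-fold, and red, blue and green are fibrillar, type IV and other types. For Col6a1 and Col24a1 in the first panel the dim control signal lay above the floor, so the triangle is an estimate and no limit. Col1a1 is at 4.12, -3.15 and -1.72, whereas Col13a1 is near 0 in the first panels and at 1.29 with retinoic acid.

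Retinoic acid on the continued diet was compared in HFHFr-FA against HFHFr-F. Col1a1 was 3.29-fold lower, Col3a1 3.27-fold lower and Col8a1 2.86-fold lower in HFHFr-FA, while Col13a1 was 2.45-fold higher and Col7a1 at least 2.20-fold higher. These 3 lower of 24 measured stand beside 2.86% of all 14723 gene names, and the 2 higher beside 2.78%. The median log2 ratio was -0.17 over the collagens and 0.03 over all gene names. Col27a1 had a log2 ratio of -0.93, Col1a2 of -0.77, Col14a1 of -0.49 and Col16a1 of -0.33. Col5a1, at -0.03, and Col6a1, at -0.01, were level between these arrays, and Col4a1 was at 0.42, so the chains that were high in HFHFr-F did not differ as a block. Col3a1 was at -0.62 with all probes averaged, Col8a1 at -0.92 and Col7a1 at 0.17 under normexp.

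HFHFr-FA nonetheless lay above control for several of these chains. In HFHFr-FA against control, 8 of 21 collagens were at least 2-fold higher, 38.1%, beside 4.52% of all 14595 gene names. They were Col1a1 (5.29-fold), Col4a1 (3.47-fold), Col6a1 (3.07-fold, on its dim control signal), Col3a1 (2.99-fold), Col1a2 (2.57-fold), Col13a1 (2.29-fold), Col16a1 (2.08-fold) and Col5a1 (2.07-fold). Col11a1 was at least 2.21-fold lower, the 1 collagen in that direction, beside 1.93% of all gene names. Col8a1, at a log2 ratio of 0.34, and Col14a1, at 0.70, were under 2-fold. The median log2 ratio was 0.49 over the collagens and -0.06 over all gene names. Under normexp 4 were at least 2-fold higher, beside 1.24% of all gene names, and HFHFr-FA alone was on the other slide.

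Retinoic acid added to normal diet was compared in HFHFr-NA against HFHFr-N. Here 2 of 23 collagens were at least 2-fold lower, beside 1.36% of all 14673 gene names, and 0 were at least 2-fold higher, beside 1.53%. These were Col27a1 (2.61-fold lower) and Col25a1 (at least 4.77-fold lower), and normexp left 0, beside 0.307% of all gene names. Col5a3 had a log2 ratio of -0.89, Col3a1 of -0.62, Col16a1 of -0.49, Col1a1 of -0.46 and Col8a1 of -0.42. Col13a1 was at 0.61, and Col7a1 at 0.73 on a dim HFHFr-N signal of 0.0849, above the floor. The median log2 ratio was -0.10 over the collagens and 0.03 over all gene names. The gap between the diets was -1.26 on the log2 scale for Col1a1, -1.09 for Col3a1 and -1.09 for Col8a1, each lower on the high-fat, high-fructose diet, and was not tested.

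**Figure D4:**
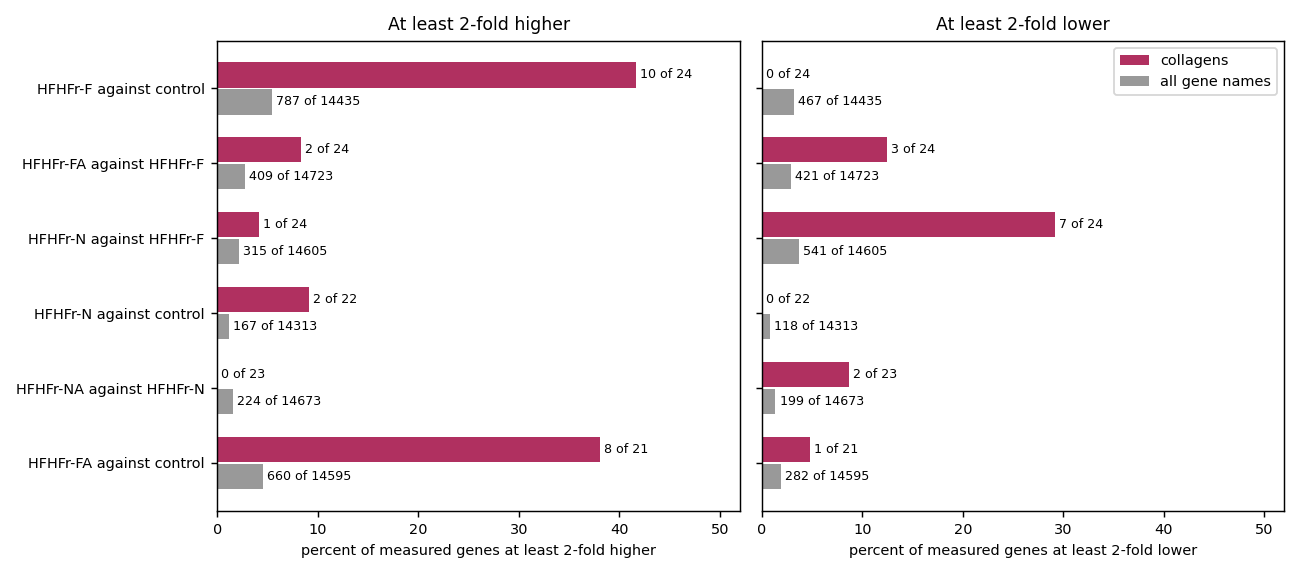
Percent of measured genes at least 2-fold higher (left) and at least 2-fold lower (right) in 6 comparisons of 2 arrays, for collagens and for all gene names, with counts beside the bars. The collagen bar for HFHFr-F against control reaches 41.7% beside 5.45% of all gene names, and that for HFHFr-NA against HFHFr-N is 0 on the higher side.

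Of 26 enzymes, chaperones and crosslinkers found, 19 were measured in HFHFr-F against control, 5 were at least 2-fold higher, beside 5.45% of all gene names, and 0 lower, beside 3.24%, with a median of 0.19. The 5 were Fkbp10, a collagen chaperone in the endoplasmic reticulum (log2 ratio 1.71), Adamts2, which removes the amino-terminal propeptide (1.54), Pcolce, which enhances removal of the carboxy-terminal propeptide (1.38), Loxl2, a crosslinking oxidase (1.25), and Serpinh1, the collagen chaperone HSP47 (1.13). P4ha1, a prolyl hydroxylase subunit that stabilises the helix, had a ratio of 0.01, and Lox was not well above background on any array. In HFHFr-FA against HFHFr-F 0 of 19 were at least 2-fold apart, beside 2.78% of all gene names higher and 2.86% lower, and in HFHFr-N against HFHFr-F 5 were lower, beside 3.7%. Serpinh1 stayed high in HFHFr-FA, at 5.87 in scaled signal beside 5.24 in HFHFr-F and 2.40 in control. The rest of the 5 were lower in HFHFr-FA than in HFHFr-F. Fkbp10 read 0.312 beside 0.557, Adamts2 1.91 beside 2.78, Pcolce 3.87 beside 5.12 and Loxl2 0.274 beside 0.438. In HFHFr-FA against control 1 of 19 on this list was at least 2-fold higher, beside 4.52% of all gene names.

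Of 10 matrix proteins that bind collagen and were measured, 3 were at least 2-fold higher in HFHFr-F than in control, beside 5.45% of all gene names, with a median of 0.46. They were Dpt, dermatopontin (log2 ratio of at least 1.98), Lum, the fibril-binding lumican (1.82), and Postn, periostin (1.28). In HFHFr-FA against HFHFr-F Dpt was at -1.93 and Lum at -1.38, while Eln, elastin, was at 1.71 on a dim HFHFr-F signal of 0.0842, above the floor. Of 9 genes measured from a list of collagen breakdown and its inhibitors, 5 were at least 2-fold higher in HFHFr-F than in control, beside 5.45% of all gene names, with a median of 1.01. Of these, 3 were inhibitors of the proteases, Timp2 (1.08), Timp3 (1.08) and Timp1 (1.01), and the other two were the collagenase Mmp13 (at least 2.13) and the gelatinase Mmp2 (at least 1.29), both bounds. Timp1 read 2.10 in control, 4.23 in HFHFr-F, 1.88 in HFHFr-FA, 1.90 in HFHFr-N and 1.97 in HFHFr-NA, so in HFHFr-FA it was at the control level. In HFHFr-FA against HFHFr-F 2 of 9 were at least 2-fold lower, beside 2.86% of all gene names, and 0 higher, beside 2.78%. The 2 were Mmp13 (-1.29) and Timp1 (-1.17). Timp3 stayed near its HFHFr-F level, at 3.03 in HFHFr-FA beside 3.24 in HFHFr-F and 1.53 in control. Mmp2 read 0.157 in HFHFr-FA beside 0.211 in HFHFr-F.

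Of 5 collagen receptors measured, 1 was at least 2-fold higher in HFHFr-F than in control, beside 5.45% of all gene names, and 0 lower, beside 3.24%. The 1 was Ddr1, a collagen-binding tyrosine kinase (log2 ratio 2.10), and Lair1, an inhibitory receptor of leukocytes, was just under 2-fold (0.99). In HFHFr-FA against HFHFr-F Ddr1 was at -1.12, the 1 of 5 at least 2-fold lower, beside 2.86% of all gene names. In the TGF-beta pathway, a main inducer of collagen transcription, the receptor Tgfbr2 was at least 2-fold higher in HFHFr-F than in control (1.20), and the ligands Tgfb1 and Tgfb3 were at 0.71 and 0.67. In HFHFr-FA against HFHFr-F Tgfbr2 was at -0.87, Tgfb1 at 0.17 and Tgfb3 at -0.42. The lists overlap in part with the markers given next, Timp1 and Eln among them.

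Markers of other cell types also differed between these arrays, and their part in the collagen differences was not tested. The counts of higher markers below stand beside 5.45% of all gene names at least 2-fold higher and 3.24% lower in HFHFr-F against control. Of 5 markers of lipid-associated macrophages 4 were at least 2-fold higher in HFHFr-F than in control, with a median of 3.44, and their summed scaled signal was 8.04 in control, 31.5 in HFHFr-F, 13.1 in HFHFr-FA, 8.05 in HFHFr-N and 9.01 in HFHFr-NA. Of 4 cholangiocyte markers measured 3 were higher, the sum being 8.70, 61.8, 11.2, 10.7 and 8.30 in that order, most of it from Spp1, which other cells also make. Of 3 portal fibroblast markers 2 were higher, with sums of 2.28, 6.23, 3.74, 2.996 and 3.05. Of 6 markers of activated stellate cells 3 were higher, with sums of 54.2, 54.5, 48.3, 51.2 and 44.8, most of it from Tagln, and Acta2, the smooth muscle actin of myofibroblasts, had a log2 ratio of 0.67. Tagln went the other way and was lower in HFHFr-F than in control, by less than 2-fold. The sum of this list therefore mixes members that differed in opposite directions. Of 8 stellate cell markers 1 was higher, Pdgfrb (1.52), with sums of 8.58, 11.2, 15.1, 10.02 and 11.8. Of 5 Kupffer cell markers 2 were higher, with sums of 34, 60.7, 63.5, 34.7 and 29.5. None of 7 sinusoidal endothelial markers was at least 2-fold apart (sums of 38.1, 27.8, 39.6, 40.2 and 31.7), nor was either of 2 smooth muscle markers (1.27, 1.65, 1.65, 1.40 and 1.46). Of 4 hepatocyte markers Cps1 was lower, and their sum of 1780 to 2404 on every array shows liver tissue as labelled. The markers Gfap, Lox, Gli1, Cftr and Cnn1 were not well above background on any array.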

How the data were processed

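Each group's pool of RNA from 5 mice went onto 1 Agilent 4x44K array in 1 colour. The authors deposited scanner files in which each spot's processed intensity was background-subtracted and detrended with Feature Extraction, version 10.5.1.1 (per the file headers), with probe positions on mm9. Flags for spots well above background, saturated spots and outliers are the software's, per the file headers. The authors' deposited values are a ratio, processed intensity over 1 constant per array, found by setting it against the scanner values. It is not centred, its direction is that of the signal, and the medians of its columns were 0.0700 for control, 0.0675 for HFHFr-F, 0.0721 for HFHFr-FA, 0.0738 for HFHFr-N and 0.0744 for HFHFr-NA. How that constant was chosen was not stated there.

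Control spots and outlier spots (60 to 96 an array) were left out. The log2 processed signal, scaled to each array's 75th percentile, was averaged over a probe's spots, and the brightest probe stood for a gene. Ratios of 2-fold or more were counted, and no test was run because a group is 1 array. Every collagen well above background on at least 1 array was described. From each other list, up to 3 members with the largest absolute log2 ratio in HFHFr-F against control and in HFHFr-FA against HFHFr-F were eligible to be named, and the text gives part of these. Counts over the TGF-beta list are not reported here. Serpinh1, P4ha1, Lox, Tgfb1, Tgfb3, Timp2, Acta2, Tagln, Gfap, Gli1, Cftr and Cnn1 were named after their values were seen. The members, lists and rules were chosen with earlier results of these data known. Whether a probe lies in an exon or untranslated region was not determined. Alternatives are given in the closing section. The ratio computation was tested on simulated data. Python 3.11.15, pandas 2.3.3, matplotlib 3.10.9, R 4.3.3 and limma 3.58.1 were used.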

Additional observations from a re-analysis of the deposited data

Results flagged for a closer look

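For 4 collagens the log2 ratio with retinoic acid had opposite signs on the high-fat, high-fructose diet (HFHFr-FA against HFHFr-F) and on normal diet (HFHFr-NA against HFHFr-N) and was beyond the spread between spots on both. The difference between the ratios, diet with fat and fructose minus normal diet, was -0.91 for Col1a2 (-0.77 against 0.13), -0.65 for Col4a2 (-0.20 against 0.45), 0.45 for Col9a2 (0.20 against -0.25) and -1.07 for Col24a1 (-0.70 against 0.37, both bounds). Of the 18 collagens measured on all 4 of these arrays, 9 were lower with retinoic acid on both diets, 4 higher on both and 5 opposite in sign. The share of all gene names that meet the rule was not counted, so the count is no result about collagens. Each difference rests on 1 pool per group, HFHFr-FA was on another slide, and the difference was not tested.

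The Col2a1 probe spotted 10 times, which the choice of the brightest probe left out, was well above background in HFHFr-F and not in control, with a log2 ratio of at least 2.82, where the overlapping brighter probe gave -0.31.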

How the results depend on the processing

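Of 1335 collagen log2 ratios recomputed under 11 alternatives, 1044 stayed within the spot spread of the main value, 291 moved beyond it and 0 called ratios changed direction. Of the 36 ratios of at least 2-fold, 30 came under 2-fold in at least 1 alternative. The other 6 were Col1a1 in its 4 comparisons of at least 2-fold, Col13a1 in HFHFr-FA against HFHFr-F and Col4a1 in HFHFr-FA against control. For Col13a1 the value with all probes averaged, 1.62, mixes in a probe that was well above background on no array. No replicate could be left out, since each group is 1 array. No paired analysis was possible because the labels give no replicate numbers. Dim spots limit what can be measured: 14 collagens had no array well above background, and normexp, which adds an offset of 50, draws dim ratios towards 0 by its construction.

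Of the collagen counts and medians, only those that moved from the main setting are listed in what follows. Percentages in brackets are shares of all gene names in the same setting. With normexp, 4 collagens were at least 2-fold higher in HFHFr-F against control (2.24%). In HFHFr-FA against HFHFr-F 1 was higher (0.849%), while 2 were still lower (1.15%), near the 3 of the main setting. In HFHFr-N against HFHFr-F 3 were lower (1.31%). The count was 0 higher in HFHFr-N against control (0.321%) and 0 lower in HFHFr-NA against HFHFr-N (0.307%). In HFHFr-FA against control 4 were higher (1.24%) and 0 lower (0.569%). The medians were 0.0845 in HFHFr-F against control, -0.0872 in HFHFr-N against HFHFr-F, 0.00766 in HFHFr-NA against HFHFr-N and 0.25 in HFHFr-FA against control. With normexp and quantile normalization 5 were higher in HFHFr-F against control (2.31%) and 1 in HFHFr-FA against HFHFr-F (0.917%). In HFHFr-N against HFHFr-F 0 were higher (0.52%) and 3 lower (1.31%). The count was 0 higher in HFHFr-N against control (0.328%) and 0 lower in HFHFr-NA against HFHFr-N (0.293%). In HFHFr-FA against control 4 were higher (1.31%) and 0 lower (0.507%). The medians were 0.21 in HFHFr-F against control and -0.26 in HFHFr-N against HFHFr-F.

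With all probes of a gene averaged, which mixes in probes at background, 6 were higher in HFHFr-F against control (4.4%). In HFHFr-N against HFHFr-F 4 were lower (3.06%). The count was 1 higher in HFHFr-N against control (1.04%) and 1 lower in HFHFr-NA against HFHFr-N (1.25%). In HFHFr-FA against control 4 of 22 were higher (3.86%) and 0 lower (1.88%). The medians were 0.42 in HFHFr-F against control, -0.00666 in HFHFr-FA against HFHFr-F and -0.39 in HFHFr-N against HFHFr-F. With cyclic loess, 1 was higher (2.23%) and 6 were lower (3.41%) in HFHFr-FA against HFHFr-F. The medians were 0.73 in HFHFr-F against control and -0.69 in HFHFr-N against HFHFr-F. Cyclic loess moved the median of all gene names from -0.08 to 0.02 in HFHFr-F against control and from 0.10 to -0.01 in HFHFr-N against HFHFr-F, so relative to all gene names the collagen medians were 0.71 and -0.68, beside 0.65 and -0.65 in the main setting. It moved the share of higher calls among all gene names from 62.8% to 74.5% and from 36.8% to 24.2% in these comparisons.

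Without a detection filter, which lets in signals at background, 6 of 39 were lower in HFHFr-FA against HFHFr-F (4.18%). In HFHFr-N 2 of 39 were higher against HFHFr-F (5.16%) and 1 lower against control (3.04%). In HFHFr-NA against HFHFr-N 2 of 39 were higher (3.65%) and 5 lower (3.72%). The medians were -0.10 in HFHFr-F against control, 0.0745 in HFHFr-N against HFHFr-F and 0.0170 in HFHFr-FA against control. With both arrays required to be above background, 1 of 19 was higher in HFHFr-FA against HFHFr-F (2.15%). In HFHFr-N 0 of 20 were higher against HFHFr-F (1.56%) and 1 of 18 against control (0.765%). The lower count was 1 of 20 in HFHFr-NA against HFHFr-N (0.873%) and 0 of 18 in HFHFr-FA against control (1.57%). The medians were 0.74 in HFHFr-F against control and -0.0252 in HFHFr-FA against HFHFr-F. At 1.5-fold, 4 of 22 were higher (4.36%) and 1 lower (3.67%) in HFHFr-N against control. In HFHFr-NA against HFHFr-N 2 of 23 were higher (6.13%) and 4 lower (5.21%). The lower count was 2 of 24 in HFHFr-F against control (11.7%) and 8 of 24 in HFHFr-FA against HFHFr-F (8.78%). In HFHFr-N against HFHFr-F it was 12 of 24 (9.24%). In alternatives chosen after seeing the data, the other Col2a1 probe brought the median of HFHFr-F against control to 0.71. Leaving out Col25a1 gave 0 higher in HFHFr-N against HFHFr-F and 1 higher in HFHFr-N against control. It gave 1 lower in HFHFr-NA against HFHFr-N. The main shares of all gene names for these are 2.16%, 1.17% and 1.36%.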
